A study of Mus musculus with 10 samples.

Results

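RNase MRP and RNase P are related RNA-protein enzymes, and 10 of their components were examined in mouse visceral fat with and without serglycin: the catalytic RNAs Rmrp and Rpph1 and the protein subunits Pop1, Pop4, Pop5, Pop7, Rpp14, Rpp30, Rpp38 and Rpp40. They were picked by gene symbol, and all 10 had a row among the 23930 amplicons of the deposited tables. All 10 also passed the filter on low counts that left 12719 genes to test. The set was proposed with the genotype comparison already known, Rmrp being among the genes with the smallest p there. Differences between the genotypes are therefore described for these genes by level, log2 fold change and standard error (SE), and no p value is printed for any single one. Counts of these genes past a threshold, with the genes named, stand beside the same share of all tested genes. They return where settings are compared, there beside counts over all genes.

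The study sequenced epididymal white adipose tissue of male C57BL/6 mice, 18 weeks old, which had all eaten high-sucrose, high-fat food over 8 weeks. Wild-type animals (Srgn+/+, n = 5) were compared with animals lacking serglycin (Srgn-/-, n = 5, called Srgn-knockout), a proteoglycan of secretory granules in blood-derived cells. How the Srgn allele was made is not given in the sources used here. Samples are numbered within each group, and the numbers pair no animals across groups. The labels give no litter, cage or sequencing batch.

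RNase P removes the 5′ leader of precursor tRNAs. RNase MRP, which arose from the same ancestor, cuts precursor ribosomal RNA in the spacer upstream of the 5.8S rRNA. Each enzyme has its own catalytic RNA, made by RNA polymerase III, and they share most protein subunits. Inherited defects of the human RMRP gene cause cartilage-hair hypoplasia, a disorder of short stature with immune deficiency.

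The RNA sequences are shown first, since the results turn on how these RNAs differ in level. They are the ribozyme entries of GENCODE release M21 (build GRCm38), read 5′ to 3′. Capitals mark the longest runs that the RNAs share, 2 runs of 9 bases, CAGCGGGGC and GCAGTGCGA.
Rmrp: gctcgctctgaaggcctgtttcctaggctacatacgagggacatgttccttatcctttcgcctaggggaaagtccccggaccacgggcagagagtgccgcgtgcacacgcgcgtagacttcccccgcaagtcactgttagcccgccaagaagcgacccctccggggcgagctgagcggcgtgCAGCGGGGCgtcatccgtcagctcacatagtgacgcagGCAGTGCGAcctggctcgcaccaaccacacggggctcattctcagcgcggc
Rpph1 (bases 1 to 300): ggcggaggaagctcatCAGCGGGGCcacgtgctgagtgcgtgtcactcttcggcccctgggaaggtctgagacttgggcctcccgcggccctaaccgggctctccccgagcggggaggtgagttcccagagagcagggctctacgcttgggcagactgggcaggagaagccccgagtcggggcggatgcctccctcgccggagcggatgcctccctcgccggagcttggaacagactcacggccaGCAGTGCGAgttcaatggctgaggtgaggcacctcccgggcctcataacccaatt
The Rmrp entry has 271 bases, of which 64.2% are G or C, and the Rpph1 entry 319 bases, of which 67.1% are G or C. The run GCAGTGCGA begins at base 221 of Rmrp and at base 246 of Rpph1, counted from the 5′ end. The run CAGCGGGGC begins at base 183 of Rmrp but at base 17 of Rpph1. No identical run longer than 9 bases was found between them. Where in each RNA the amplicon lies is not given in the sources used here.

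In build GRCm38, Rmrp lies on chromosome 4 from 43492788 to 43493058 on the minus strand, and Rpph1 on chromosome 14 from 50807449 to 50807767 on the minus strand. Beside each lies a protein-coding gene that runs the other way, Ccdc107 beside Rmrp and Parp2, a DNA repair enzyme, beside Rpph1. Of the 6 annotated Ccdc107 transcripts, 1 has an exon that covers 124 bases (45.8%) of the Rmrp RNA on the opposite strand. No exon of the 8 annotated Parp2 transcripts covers Rpph1. Whether the counting used strand is not given, so if the amplicon lies within those bases, reads from Rmrp and from that transcript cannot be told apart.

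RefSeq promoter windows (GRCm38.p6, 250 bases before to 50 after a gene start) matched 7 of the 10 genes, and none matched Rmrp, Rpph1 or Pop1. The windows of the opposing neighbours are shown in their place because each lies near the start of a catalytic RNA. They were searched on both strands for TATAA and for the octamer ATTTGCAT, which do not overlap each other here, and matches are in capitals.
Parp2, chr14:50807666-50807965, plus strand: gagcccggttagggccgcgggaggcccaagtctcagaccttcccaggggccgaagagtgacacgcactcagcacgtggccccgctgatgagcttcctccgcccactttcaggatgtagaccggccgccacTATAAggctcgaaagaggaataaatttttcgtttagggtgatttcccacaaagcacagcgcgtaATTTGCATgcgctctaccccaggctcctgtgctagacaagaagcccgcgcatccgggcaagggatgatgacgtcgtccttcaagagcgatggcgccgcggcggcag
Ccdc107, chr4:43493115-43493414, plus strand: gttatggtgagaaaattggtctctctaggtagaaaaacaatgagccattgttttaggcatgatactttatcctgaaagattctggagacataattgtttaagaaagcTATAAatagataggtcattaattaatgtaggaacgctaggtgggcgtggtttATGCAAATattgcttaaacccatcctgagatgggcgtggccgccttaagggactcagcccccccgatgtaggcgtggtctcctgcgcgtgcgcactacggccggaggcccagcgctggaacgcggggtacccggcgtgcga
The first 102 bases of the Parp2 window are the reverse complement of the start of Rpph1. Its TATAA lies 28 bases and its octamer 92 bases beyond the Rpph1 start. In the Ccdc107 window TATAA lies 163 bases and the octamer, read on the other strand as ATGCAAAT, 215 bases beyond the Rmrp start. This window holds 0 bases of Rmrp. The bases between the Rmrp start (43493058) and the window start (43493115) were not searched, so a match nearer to Rmrp could have been missed. TATAA was present in 24.9% of all 32851 windows of 300 bases, the octamer in 1.74%, and both in 0.597%. Among the 7 matched protein-subunit windows, 1 (Rpp14) held TATAA and 0 held the octamer. These matches describe letters and not bound sites.

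Levels are normalized CPM values, that is, reads scaled to library size after trimmed mean of M-values correction. Each gene was read at 1 amplicon, so gene length does not enter, but amplicons differ in efficiency and levels are compared between libraries and not between genes. The libraries held 7824764 to 10757779 reads. The Srgn amplicon had 776 to 1301 reads in wild-type libraries and 0 to 12 in Srgn-knockout libraries. Markers of fat cells were abundant in every library, with a summed level over 8 of 8 markers of 29583 to 37123 CPM in wild-type animals and of 29069 to 35211 CPM in knockouts. Epididymis markers, summed over 12, reached 668, 5808 and 995 CPM in wild-type 4, Srgn-knockout 3 and Srgn-knockout 5. Elsewhere they reached at most 20.02 CPM. The Rmrp fold change and the count of components past the threshold are therefore also given without these 3 libraries. In whole tissue, fewer cells of a type and less RNA per cell cannot be told apart.

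Rmrp, the catalytic RNA of RNase MRP, was lower in every Srgn-knockout library than in every wild-type library. Its level was 7183, 5795, 6158, 6890 and 4798 CPM in wild-type 1 to 5. It was 3895, 3281, 3275, 3502 and 3586 CPM in Srgn-knockout 1 to 5. The groups did not overlap, and the gap between them ran from 3895 CPM (Srgn-knockout 1) to 4798 CPM (wild-type 5). Wild-type animals averaged 6165 ± 945 CPM and knockouts 3508 ± 256 CPM (SD, n = 5). The fitted log2 fold change was -0.81 (SE 0.127), which is 56.9% of the wild-type level. Wild-type animals also differed more among themselves, with a coefficient of variation of 15.3% against 7.30%. Of all tested genes, 1.38% had every Srgn-knockout library below every wild-type library. The size of the Rmrp difference exceeded that of 95.5% of tested genes.

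Rpph1, the catalytic RNA of RNase P, had a smaller difference by point estimate, and its groups overlapped. Its level was 9343, 8823, 8587, 9547 and 10740.0 CPM in wild-type 1 to 5 and 7962, 7908, 9084, 8703 and 7738 CPM in Srgn-knockout 1 to 5. Of the 5 Srgn-knockout libraries, 3 lay below the lowest wild-type library, while Srgn-knockout 3 and 4 lay within the wild-type range. The means were 9408 ± 839 and 8279 ± 583 CPM (SD, n = 5), with a log2 fold change of -0.18 (SE 0.109). The size of this difference exceeded that of 55.0% of tested genes.

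**Figure D1:**
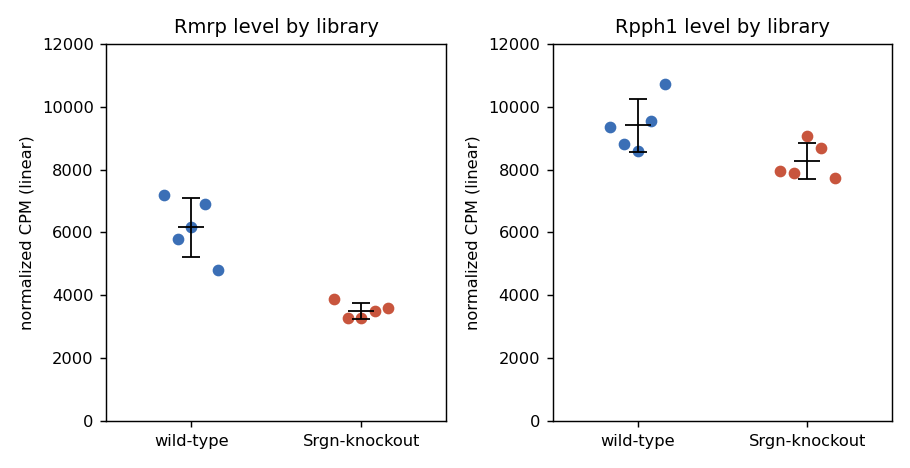
Normalized CPM of Rmrp (left) and Rpph1 (right) in each library on linear axes from 0, by genotype; each point is 1 library, and bars are the mean ± SD of 5. For Rmrp the Srgn-knockout libraries sit between 3275 and 3895 CPM, all below the wild-type libraries, while for Rpph1 the groups overlap.

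Because both RNAs were read in the same library, their ratio does not depend on how libraries are scaled. There were 0.769, 0.657, 0.717, 0.722 and 0.447 Rmrp reads per Rpph1 read in wild-type 1 to 5. The ratio was 0.489, 0.415, 0.361, 0.402 and 0.463 in Srgn-knockout 1 to 5. Wild-type 5 thus fell among the Srgn-knockout libraries on this measure, with the lowest Rmrp and the highest Rpph1 of the wild-type group, and the groups overlapped. The other 4 wild-type libraries lay above all Srgn-knockout libraries. The means were 0.662 ± 0.127 and 0.426 ± 0.0509 (SD, n = 5). Together the RNAs took 1.42% to 1.68% of all reads in wild-type libraries and 1.15% to 1.26% in Srgn-knockout libraries, ranges that did not overlap. Rmrp alone took 0.462% to 0.730% against 0.334% to 0.392%, also without overlap. The Rpph1 shares overlapped, at 0.858% to 1.03% against 0.787% to 0.926%. For single genes, 1.38% of those tested had every Srgn-knockout library below every wild-type library.

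**Figure D2:**
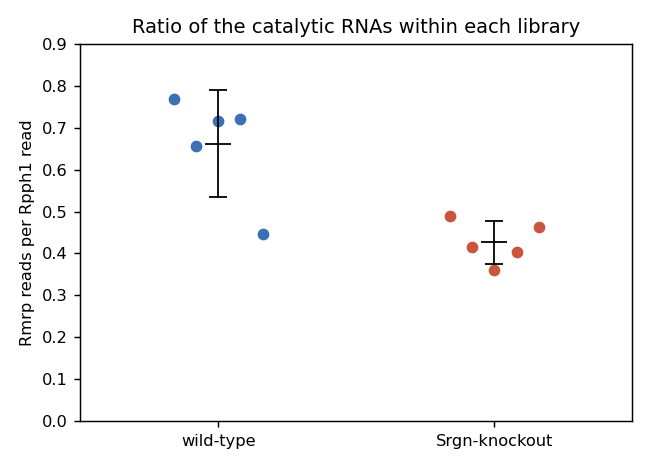
Rmrp reads per Rpph1 read in each library by genotype, on a linear axis from 0; points are libraries and bars the mean ± SD of 5. The lowest wild-type point is wild-type 5 at 0.447, inside the Srgn-knockout range of 0.361 to 0.489.

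Wild-type 5 also had the fewest reads of all libraries (7824764) and the highest summed level of 10 macrophage markers (5767 CPM). Wild-type 1, with the highest Rmrp, had the lowest macrophage sum of all libraries (1586 CPM). Among knockouts the extremes ran the other way. Srgn-knockout 1 had the highest of both (Rmrp 3895 CPM, macrophage sum 3176 CPM), and Srgn-knockout 3 the lowest of both (3275 and 1679 CPM). Across the genotypes the macrophage sums overlapped, at 1586 to 5767 CPM for wild-type animals and 1679 to 3176 CPM for knockouts, although all 9 tested macrophage markers had lower point estimates in knockouts (median log2 fold change -0.63). All 6 endothelial markers had higher ones (median log2 fold change 0.36), with sums of 542 to 720 CPM against 610 to 843 CPM. Summed lymphocyte markers, like Rmrp, were lower in every Srgn-knockout library than in every wild-type library. Of tested genes taken singly, 1.38% were lower in that way. The summed level of T-cell markers (8 of 9 with a row) was 26.4 to 71.4 CPM in wild-type animals, against 17.2 to 23.9 CPM in knockouts. That of B-cell markers (5 of 6 with a row) was 33.7 to 149 and 18.0 to 28.8 CPM. All 8 tested T-cell markers and all 5 tested B-cell markers had lower point estimates in knockouts (median log2 fold change -1.12 and -1.11). No marker of these lists was at 0 throughout a group, and none passed the threshold in the fit over all genes (edgeR quasi-likelihood test, adjusted p under 0.05). The part of lymphocytes, macrophages, endothelial cells or sequencing depth in the Rmrp difference was not tested. Without the 3 libraries that held epididymis RNA, the Rmrp log2 fold change was -0.75 (SE 0.182).

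The 8 protein subunits had point estimates in both directions, each smaller in size than that of Rmrp. By point estimate 4 were higher (49.7% of tested genes) and 4 lower (50.3%) in knockouts. Their median log2 fold change was -0.06, against -0.0014 over all tested genes. For all 8 the groups overlapped. Their summed level was 183 to 232 CPM in wild-type animals, against 185 to 233 CPM in knockouts.

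The subunits with lower values were Pop4, Pop5, Pop7 and Rpp30. Pop4 (also called Rpp29), which contacts the catalytic RNA, had 42.4, 53.6, 49.9, 58.1 and 59.6 CPM in wild-type 1 to 5. It had 51.1, 40.8, 45.7, 44.8 and 47.4 CPM in Srgn-knockout 1 to 5 (log2 fold change -0.20, SE 0.107). All 5 Srgn-knockout libraries lay below the wild-type median, yet wild-type 1 lay below all but 1 of them. Pop5, a small core subunit, had 46.5 to 58.9 CPM (median 48.3) and 41.9 to 54.1 CPM (median 44.7), with a log2 fold change of -0.14 (SE 0.0993). Pop7 (Rpp20), which pairs with Rpp25, had 25.6 to 37.6 CPM in wild-type animals, against 20.6 to 33.6 CPM in knockouts (log2 fold change -0.22, SE 0.150). Rpp30, a core subunit found in archaeal RNase P as well, had 23.2, 32.5, 38.1, 39.2 and 35.8 CPM in wild-type 1 to 5. It had 31.6, 23.3, 20.4, 33.3 and 32.9 CPM in Srgn-knockout 1 to 5 (log2 fold change -0.25, SE 0.174). Wild-type 1 was the lowest wild-type library for Pop4, Pop5, Pop7 and Rpp30, although it had the most Rmrp.

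Rpp40 had the largest difference among the protein subunits by point estimate, toward higher values. Its reads were 37, 41, 37, 24 and 33 in wild-type 1 to 5, against 62, 65, 44, 33 and 39 in Srgn-knockout 1 to 5. As levels these were 3.56, 3.92, 3.76, 2.75 and 4.38 CPM, and 6.08, 7.15, 5.24, 4.21 and 4.26 CPM. Srgn-knockout 1, 2 and 3 lay above every wild-type library, and Srgn-knockout 4 and 5 lay just below wild-type 5. The means were 3.67 ± 0.600 and 5.39 ± 1.25 CPM (SD, n = 5; log2 fold change 0.55, SE 0.222). With so few reads, counting error alone was 12.4% to 20.4% of a library's value. The coefficient of variation was 16.3% in wild-type and 23.2% in Srgn-knockout, the latter above the counting error of each library.

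Rpp38, an RNA-binding subunit of the L7Ae family, had 9.62, 10.7, 14.5, 10.1 and 17.4 CPM in wild-type 1 to 5. It had 17.3, 11.1, 13.5, 15.4 and 11.9 CPM in Srgn-knockout 1 to 5 (log2 fold change 0.16, SE 0.193). The Srgn-knockout range lay inside the wild-type range. Rpp14, a relative of Pop5, had 21.3 to 28.8 CPM in wild-type animals, against 18.3 to 33.8 CPM in knockouts (log2 fold change 0.13, SE 0.152). The Rpp14 transcript also encodes a mitochondrial enzyme of fatty acid synthesis, so its amplicon need not report the subunit alone. Pop1, the largest subunit, had 7.51 to 10.4 CPM and 6.51 to 10.8 CPM, and a log2 fold change of 0.01 (SE 0.168).

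**Figure D3:**
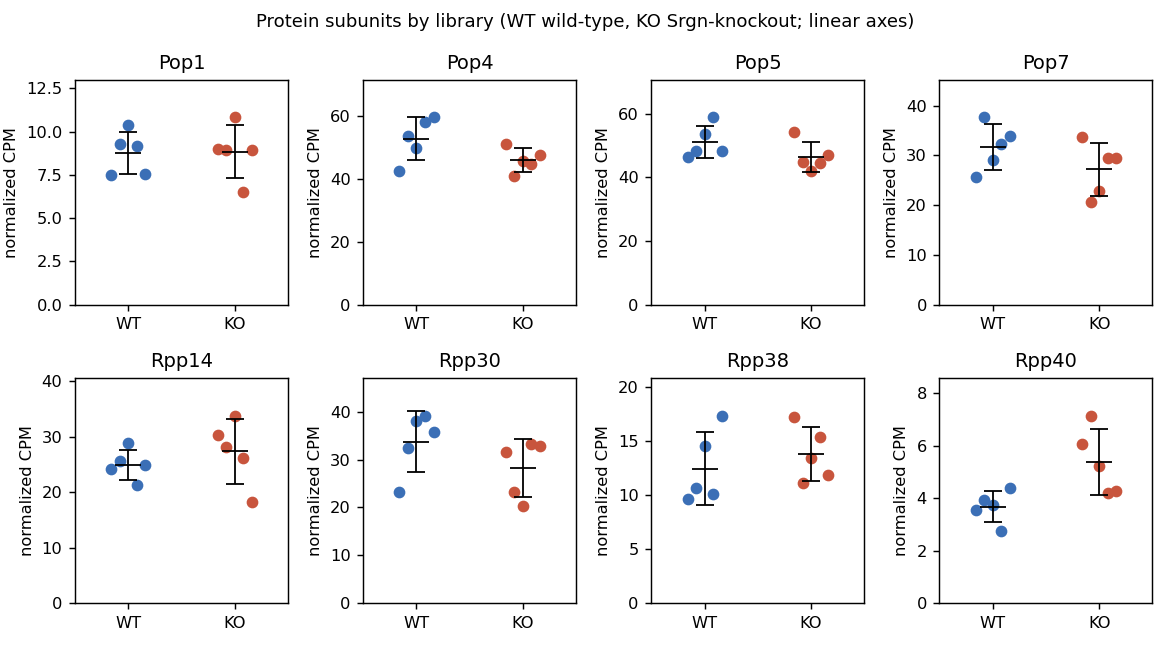
Normalized CPM of the 8 protein subunits in each library (WT wild-type, KO Srgn-knockout), on linear axes from 0 with a scale of its own per gene; points are libraries and bars the mean ± SD of 5. The groups overlap in every panel, and for Rpp40 the 3 highest libraries are Srgn-knockout 1, 2 and 3.

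Among the 10 components, 0 passed the threshold in the fit over all genes (edgeR quasi-likelihood test, Benjamini-Hochberg adjusted p under 0.05), where 0.00786% of tested genes passed. At an unadjusted p under 0.05 there were 2 of 10 (Rmrp and Rpp40), against 12.8% of tested genes. The DESeq2 Wald test called 1 of 10, Rmrp, as lower, where it called 0.849% of tested genes lower. Limma-voom also called Rmrp alone (0.0629% of tested genes lower), as did edgeR with no filter on low counts (0.0135%) and edgeR without wild-type 5 (0.0154%). These counts come from the contrast with which the genes were chosen and carry no further weight.

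**Figure D4:**
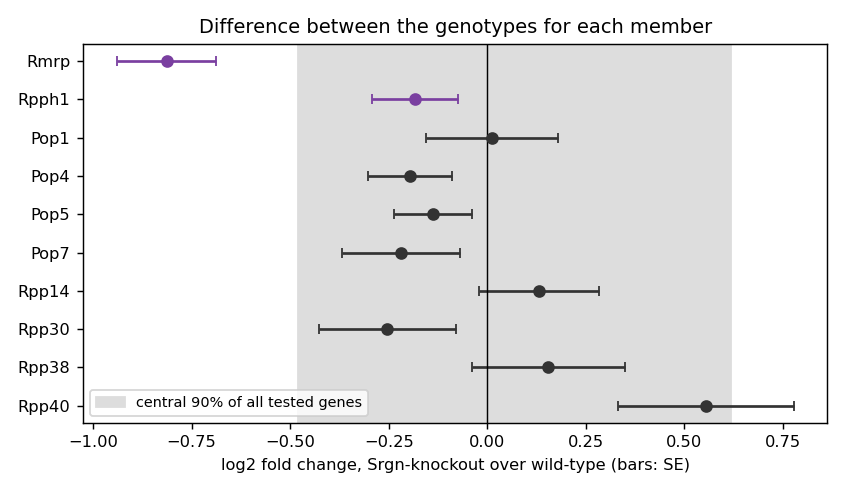
Log2 fold change of Srgn-knockout over wild-type for each component, with bars of 1 SE; the grey band holds the central 90% of all tested genes, from -0.48 to 0.62. Rmrp at -0.81 is outside the band, Rpp40 at 0.55 is near its upper edge, and the other 8 lie between -0.25 and 0.16.

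**Figure D5:**
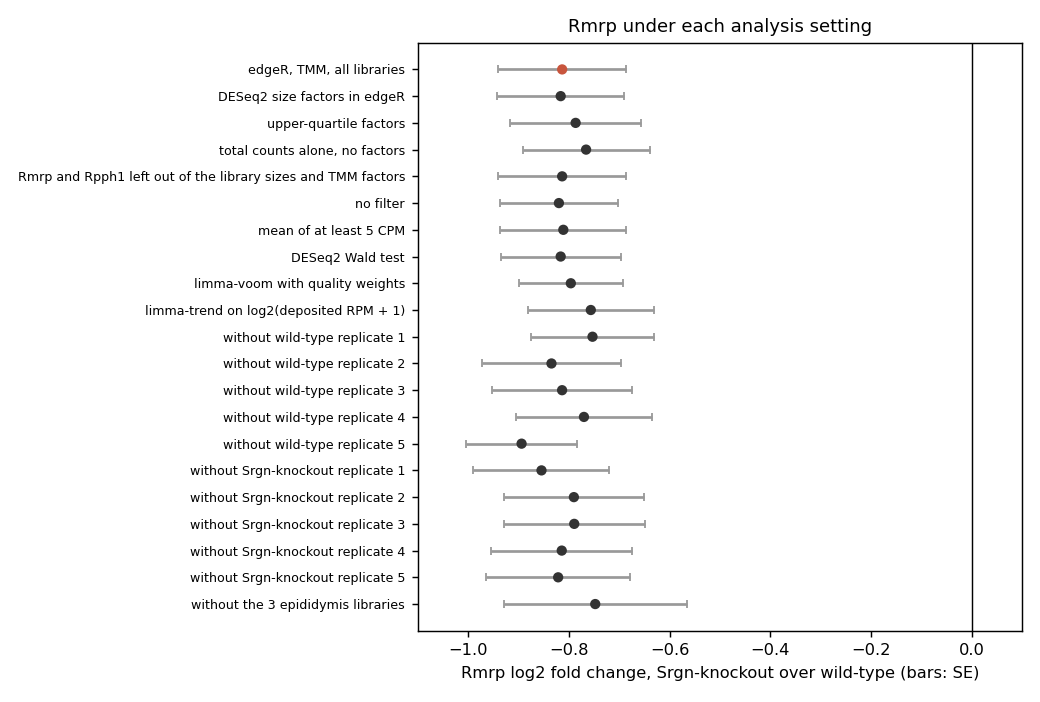
Rmrp log2 fold change of Srgn-knockout over wild-type (bars, 1 SE) in the edgeR fit of all libraries (red) and under 20 alternative settings. The values run from -0.89 without wild-type replicate 5 to -0.75 without the 3 epididymis libraries.

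Within the genotypes the components did not vary as a single block. After subtraction of each genotype's mean, Pearson's r of log2 CPM over the 10 libraries ranged from -0.48 for Rmrp with Rpph1 to 0.75 for Pop4 with Pop7. Of the 45 pairs, 22 were positive and 23 negative, with a median of -0.02. All pairs among Pop4, Pop5, Pop7 and Rpp30, the subunits with lower values, were positive (0.46 to 0.75). Their lower values are therefore not separate observations. The r values describe libraries that share depth and scaling.

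By the same measure, the genes most like Rmrp among 8544 genes of at least 10 CPM were Slc25a28, a mitochondrial iron carrier (r = 0.94), Ctage5 (0.93) and Cct7, a chaperonin subunit (0.92). The least like it were the potassium channel gene Kcnk2 (-0.92), Clip3 (-0.90) and the sugar transporter gene Slc2a8 (-0.90). For Rpph1 the most alike were Smim14 (0.93), Arrdc4 (0.91) and Nucb1 (0.90), and the least alike Nin, which encodes the centrosomal protein ninein (-0.94), Dync1li1 (-0.93) and Il6st, the shared receptor of interleukin-6 family cytokines (-0.91). None of these 12 genes was named for both RNAs. Extremes of this size are picked from 8544 genes over 10 libraries and are given as a description.

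Further genes, from 6 lists that exclude the 10 components, gave 94 tested genes. The lists hold pathway genes, but also other noncoding RNAs and genes near Rmrp and Rpph1 on the chromosome. In the edgeR quasi-likelihood test 0 rose and 0 fell. At an unadjusted p under 0.05 there were 10 (10.6%), 4 higher and 6 lower, against 12.8% of all tested genes. The DESeq2 Wald test called 2, Ncl and Neat1, both higher, where it called 0.928% of tested genes higher, and limma-voom called 0. By point estimate 30 were higher and 64 lower, where 50.3% of all tested genes were lower. The median log2 fold change was -0.07, against -0.0014 over all tested genes.

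The list of remaining subunits and a partner protein had 4 tested genes, of which 0 passed in edgeR. By point estimate 0 were higher and 4 lower (median log2 fold change -0.11), where 50.3% of all tested genes were lower. At an unadjusted p under 0.05 there were 0, against 12.8% of all tested genes. Rpp21, a subunit known from RNase P, had 36.0 ± 2.16 CPM in wild-type animals, against 32.6 ± 2.90 CPM in knockouts (SD, n = 5; edgeR adjusted p = 0.530). Rpp25l had 13.4 ± 1.59 and 12.3 ± 0.991 CPM (edgeR adjusted p = 0.706), and Rpp25, the partner of Pop7, 3.09 ± 0.848 and 2.89 ± 0.752 CPM (edgeR adjusted p = 0.904).

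RNA polymerase III transcribes both catalytic RNAs, and 31 genes of its subunits and factors were tested, of which 0 passed in edgeR. Their median log2 fold change was -0.08, with 11 higher and 20 lower values, where 50.3% of all tested genes were lower. The smallest p belonged to Gtf3c3, a subunit of the factor TFIIIC, at 19.8 ± 1.28 and 24.4 ± 0.694 CPM (log2 fold change 0.30, edgeR adjusted p = 0.246), with every Srgn-knockout library above every wild-type library. That was so for 1.39% of tested genes. Polr3e, a polymerase subunit, had 14.6 ± 4.0 and 10.4 ± 2.02 CPM (log2 fold change -0.49, edgeR adjusted p = 0.352). Polr1d, shared by polymerases I and III, had 184 ± 28.9 and 155 ± 9.87 CPM (log2 fold change -0.25, edgeR adjusted p = 0.378).

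Of 33 tested genes of ribosomal RNA processing, the step RNase MRP serves, 0 passed in edgeR. Among them 10 had higher and 23 lower values (median log2 fold change -0.06), where 50.3% of all tested genes were lower. Ncl, which encodes the nucleolar protein nucleolin, had 88.8 ± 22.3 and 132 ± 9.27 CPM (log2 fold change 0.57, edgeR adjusted p = 0.214). Mrto4, a factor of large-subunit assembly, had 66.1 ± 8.76 and 46.9 ± 9.26 CPM (log2 fold change -0.49, edgeR adjusted p = 0.228). Exosc4, a subunit of the RNA exosome, had 28.0 ± 2.86 and 22.7 ± 1.28 CPM (log2 fold change -0.31, edgeR adjusted p = 0.257), and its groups did not overlap.

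Transfer RNA processing and mitochondrial RNase P, a protein-only enzyme, were covered by 14 tested genes, of which 0 passed in edgeR (median log2 fold change -0.06). Among them 3 had higher and 11 lower values, where 50.3% of all tested genes were lower. Trmt10c, a subunit of mitochondrial RNase P, had 15.0 ± 1.76 and 17.6 ± 2.07 CPM (edgeR adjusted p = 0.470). Tsen15, of the tRNA splicing endonuclease, had 20.6 ± 5.23 and 16.7 ± 1.28 CPM (edgeR adjusted p = 0.483). Elac2, which cuts the 3′ end of precursor tRNAs, had 55.7 ± 4.53 and 51.4 ± 6.02 CPM (edgeR adjusted p = 0.642).

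Of 15 other structural or nuclear noncoding RNAs listed, 6 had a row and 4 were tested, and 0 passed in edgeR. Neat1, the scaffold of nuclear paraspeckles, had the smallest p, with 27.0, 15.4, 20.5, 19.1 and 19.6 CPM in wild-type 1 to 5 and 23.7, 36.3, 37.6, 32.4 and 30.8 CPM in Srgn-knockout 1 to 5 (log2 fold change 0.66, edgeR adjusted p = 0.191). The groups overlapped only through Srgn-knockout 1 and wild-type 1. Terc, the telomerase RNA, had 2.34 ± 0.912 and 1.90 ± 0.437 CPM, and the vault RNA gene Vaultrc5 7.22 ± 1.38 and 6.68 ± 0.886 CPM (edgeR adjusted p = 0.731 and 0.830). The RNase P RNA-like genes Rprl1 and Rprl2 had at most 7 and 5 reads in a library and were not tested.

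Of 10 genes listed as lying near the catalytic RNAs, 8 were tested and 0 passed in edgeR. At an unadjusted p under 0.05 there were 2, Tep1 and Apex1, against 12.8% of all tested genes. Of the 10, Sit1 beside Rmrp and Ccnb1ip1 beside Rpph1 were not tested, with at most 10 reads and 0 reads in a library. Ccdc107, whose transcript can overlap Rmrp, had 12.1, 9.65, 18.6, 13.5 and 11.5 CPM in wild-type 1 to 5 and 13.8, 12.4, 15.6, 15.2 and 12.7 CPM in Srgn-knockout 1 to 5 (log2 fold change 0.09, edgeR adjusted p = 0.852). Its Srgn-knockout range lay inside the wild-type range. Parp2, which shares its window with Rpph1, had 15.6 ± 1.21 and 13.4 ± 1.72 CPM (log2 fold change -0.22, edgeR adjusted p = 0.471). On the Rmrp side, Arhgef39 (2.52 ± 1.22 and 2.88 ± 1.53 CPM), Car9 (3.14 ± 1.88 and 1.76 ± 1.25 CPM) and Tpm2, a tropomyosin (36.2 ± 9.89 and 41.4 ± 10.4 CPM), did not pass. On the Rpph1 side, Tep1, a telomerase-associated protein (92.0 ± 10.9 and 75.7 ± 7.58 CPM), Osgep, an enzyme of tRNA modification (41.8 ± 3.76 and 42.6 ± 3.76 CPM), and the more distant Apex1, a DNA repair enzyme (11.3 ± 3.34 and 16.8 ± 3.78 CPM), did not pass either. Among all genes within 6 places of either RNA, a set made after the values were seen, 15 were tested and 0 passed in edgeR. At an unadjusted p under 0.05 there were 4, against 12.8% of all tested genes. The DESeq2 Wald test called 1, as higher, where it called 0.928% of tested genes higher, and limma-voom called 0. The DESeq2 call and the smallest p in edgeR both belonged to Fam166b, 4 places from Rmrp. It had 0.665 ± 0.299 CPM in wild-type animals, against 2.61 ± 1.05 CPM in knockouts, with no overlap (log2 fold change 1.95, SE 0.434; edgeR adjusted p = 0.191, DESeq2 adjusted p = 0.0117). Fam166b was named as the extreme of these 15 genes, and its wild-type level is near the floor. Every Srgn-knockout library lay above every wild-type library in 1.39% of tested genes. Over all genes DESeq2 called 226, where edgeR called 1.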

How the data were processed

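Total RNA from 10 mice was made into libraries with the Ion AmpliSeq mouse transcriptome kit, 1 amplicon per gene, and read on an Ion S5 XL, per the labels' protocols. The authors deposited raw counts, whole reads per amplicon, and RPM values, which equal the raw count scaled to its column total (largest difference 0.000591). The submitters' processing notes name build mm9; which aligner and counter were used is not given in the sources used here.

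Counts were analysed in R 4.3.3 with edgeR 4.0.16: default filterByExpr (minimum count 10, minimum total 15), TMM factors, robust quasi-likelihood test of genotype without covariates, two-sided, Benjamini-Hochberg adjusted over 12719 genes, threshold 0.05. The design text gives 5 mice per genotype. The p-values set the genotype difference against variation among the libraries of a genotype, which holds tissue sampling and library preparation as well as animals. Alternatives used DESeq2 1.42.0, limma 3.58.1 (pseudocount 1 on RPM), other factors and filters, and fewer libraries. The edgeR script was tested on simulated data. AmpliSeq reads carry no molecular identifiers, so counting errors (1 over the square root of reads) cover counting only. The components, gene lists and tests were chosen with earlier results of these data known. Named genes are all components, tested neighbours, up to 3 genes with the smallest p in each other list, and the 3 most and 3 least like each catalytic RNA. Sequences come from GENCODE M21 and RefSeq tables of GRCm38, another build than mm9; the files hold no coordinates.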

Additional observations from a re-analysis of the deposited data

How the results depend on the processing

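The Rmrp log2 fold change kept its sign under all 20 alternatives, from -0.89 to -0.75, and from -0.89 to -0.75 over the 10 that leave out 1 library. For the fits on fewer libraries the sign was settled beforehand, because Rmrp levels had no overlap between the genotypes. Those fits therefore bear on the size of the difference and not on its direction. The Rmrp call depended on the setting. The count of components past the threshold, 0 in the edgeR fit of all libraries, was 1 (Rmrp) with no filter, with the DESeq2 Wald test and with limma-voom, and ranged from 0 to 1 when 1 library was left out, being 1 without wild-type 5. Over all genes the count was 1 in edgeR, 3 with no filter, 226 with DESeq2 (118 higher, 108 lower), 10 with limma-voom (2 higher, 8 lower), and 1 to 2 with 1 library left out, 2 without wild-type 5 and 2 without Srgn-knockout 1. Among the genes of the further lists it was 0, and 2 with DESeq2. Why the tools differ was not tested. Without the 3 epididymis libraries 0 components passed, with fewer samples. Rpph1, Pop4, Pop5, Pop7, Rpp30, Rpp38 and Rpp40 kept their sign wherever fitted (Rpp40 in 19 alternatives, since it was below 5 CPM). Pop1 changed sign in 5 of 20 and Rpp14 in 1 (limma-voom, -0.0058). Of the 12 genes named as most or least like Rmrp or Rpph1, 7 stayed in the first 3 of their side with Spearman's rho, and 2 without centring by genotype. At 24 to 65 reads, the counting error of Rpp40 is 12.4% to 20.4%. No paired analysis was possible because the labels give the groups no shared replicate numbers.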
